A study of Mus musculus with 9 samples.

Results

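The MHC class I antigen presentation machinery of 4T1-TGL cells was followed through 31 genes, chosen by name with earlier results of these data known. They are 11 class I heavy chains, the class I-like molecule Cd1d1, the light chain B2m, 4 genes of peptide transport and loading, 3 chaperones of the endoplasmic reticulum, the trimming enzyme Erap1, 9 proteasome genes and the transactivator Nlrc5. Of the 31, 30 were listed in the gene tables, which hold 19072 gene identifiers in all, and H2-Q6 was listed in none of the 9 libraries. All 30 passed the filter on low counts.

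4T1-TGL is a derivative of 4T1, a mammary carcinoma line from a BALB/c mouse, and was grown in DMEM/F12. RNA was sequenced from 3 libraries of KO2 and 3 of KO1, both labelled Malat1 KO, and from 3 of Ctrl, labelled WT, all of the same line and medium. The record names KO2 and KO1 by the numbers 43 and 3, and neither the way the knockouts were made nor whether each is a single clone is given in the sources used here. Malat1 loss and any other difference between the KO2, KO1 and Ctrl cells therefore cannot be told apart. The labels do not say whether replicates came from separate cultures, so p-values measure the spread between these libraries, which may be technical. The record's design text numbers the last library of each knockout differently from its title, and libraries were grouped by title.

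Peptides for class I molecules are cut from cytosolic proteins by the proteasome, whose standard catalytic subunits can be replaced by inducible ones in the immunoproteasome. The TAP transporter carries them into the endoplasmic reticulum, where chaperones and tapasin help load them onto a heavy chain paired with beta-2 microglobulin, and the complex is then shown at the cell surface to CD8 T cells and NK cells. Interferon gamma raises many of these genes through the kinases Jak1 and Jak2 and the factor Irf1, and Nlrc5 acts with RFX, CREB/ATF and NF-Y proteins at the promoters of class I genes. The title of the series concerns pyroptosis and T cell killing, and class I presentation is the step by which CD8 T cells recognise a tumour cell.

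Promoter sequences of 24 of the 31 members were found in RefSeq (GRCm38.p6), as 250 bases before to 50 after each start. Those of Tapbp, Psmb8 and Tap1 are shown because these genes were lower in KO2 than in KO1, and those of B2m and H2-K1 because their levels were not called different between the knockouts. Capitals mark 4 short motifs searched on both strands, namely the interferon response element core GAAANNGAA, the kappaB-like GGGGANNCC, the cyclic AMP response element core TGACG and the CCAAT box CCAAT. The reference is C57BL/6, not BALB/c. The Tapbp window is chr17:33919228-33919527 on the plus strand, Psmb8 chr17:34197945-34198244 plus, Tap1 chr17:34187306-34187605 plus, B2m chr2:122147437-122147736 plus and H2-K1 chr17:34000298-34000597 minus. For H2-K1 the promoter table uses a start inside the RefSeq gene span given below, so that window lies within the span.
Tapbp: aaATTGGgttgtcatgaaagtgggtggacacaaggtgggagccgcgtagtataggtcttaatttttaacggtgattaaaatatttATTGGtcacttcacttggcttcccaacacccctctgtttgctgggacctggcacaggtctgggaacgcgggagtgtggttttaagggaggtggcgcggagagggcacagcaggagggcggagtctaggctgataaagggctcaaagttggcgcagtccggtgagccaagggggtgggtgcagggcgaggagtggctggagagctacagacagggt
Psmb8: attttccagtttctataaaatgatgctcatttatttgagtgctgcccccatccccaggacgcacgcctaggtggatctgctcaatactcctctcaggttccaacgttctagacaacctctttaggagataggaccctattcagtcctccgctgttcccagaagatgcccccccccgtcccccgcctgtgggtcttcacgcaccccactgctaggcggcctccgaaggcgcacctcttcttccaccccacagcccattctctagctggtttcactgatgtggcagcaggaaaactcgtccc
Tap1: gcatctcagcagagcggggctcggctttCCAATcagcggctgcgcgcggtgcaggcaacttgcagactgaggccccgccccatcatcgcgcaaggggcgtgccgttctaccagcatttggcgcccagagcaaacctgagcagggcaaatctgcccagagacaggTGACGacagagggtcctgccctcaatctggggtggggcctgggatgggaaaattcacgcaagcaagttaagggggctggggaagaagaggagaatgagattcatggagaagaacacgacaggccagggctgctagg
B2m: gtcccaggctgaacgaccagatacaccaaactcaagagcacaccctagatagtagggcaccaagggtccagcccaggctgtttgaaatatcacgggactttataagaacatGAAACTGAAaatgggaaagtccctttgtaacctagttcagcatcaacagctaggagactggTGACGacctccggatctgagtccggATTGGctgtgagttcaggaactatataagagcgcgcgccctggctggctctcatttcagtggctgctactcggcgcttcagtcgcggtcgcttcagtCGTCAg
H2-K1: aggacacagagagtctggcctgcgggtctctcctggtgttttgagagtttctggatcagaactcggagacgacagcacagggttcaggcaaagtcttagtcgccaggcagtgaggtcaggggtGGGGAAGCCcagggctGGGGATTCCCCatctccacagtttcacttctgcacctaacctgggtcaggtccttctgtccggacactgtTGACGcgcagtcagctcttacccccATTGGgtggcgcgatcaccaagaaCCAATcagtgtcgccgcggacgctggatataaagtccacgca
Of the 24 members with a promoter, the interferon response element core was found in 5 (H2-T22, H2-T23, B2m, Erap1 and Psme1), against 8.56% of 32851 promoters of the same length. For all 4 motifs, a member counted if any promoter under its name held a match, while the percent is over single promoters. The kappaB-like motif was found in 5 (H2-K1, H2-D1, H2-Q6, H2-Q7 and Calr), against 6.24%. TGACG was in 15 and the CCAAT box in 17, against 20.8% and 37.4% of all promoters. In the windows shown, the B2m promoter held 1 interferon response element core at -139 from the start, and H2-K1 held 3 kappaB-like matches, of which those at -111 and -109 overlap on opposite strands. Tapbp held 2 CCAAT boxes and Psmb8 none of the 4 motifs. Tap1 and Psmb9 are transcribed away from each other from starts 226 bases apart on chromosome 17, so their windows overlap by 275 bases. A match describes letters only and shows no binding.

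Library totals ran from 30655924 expected counts in KO2 replicate 2 to 35406395 in Ctrl replicate 2. Malat1, the targeted gene, was at 119, 160 and 98.1 CPM (counts scaled by library size) in KO2, at 3.88, 3.69 and 2.63 in KO1, and at 510, 402 and 474 in Ctrl. The log2 fold change was -1.88 ± 0.18 (SE) in KO2 and -7.08 ± 0.24 in KO1, so KO2 kept more Malat1 reads than KO1 and both were below every Ctrl library. Of 6 epithelial markers, the keratin Krt8 averaged 1055 CPM in KO2, 635 in KO1 and 373 in Ctrl, and its partner Krt18 averaged 1153 in KO2, 641 in KO1 and 333 in Ctrl, both called higher in each knockout. Only 3 of the 6 were tested. The tested marker besides these keratins was not called against Ctrl. Its log2 difference from Ctrl pointed up for KO2 (0.76) but down for KO1 (-1.10). Epcam and Cdh1 stayed below 1 CPM in every library. Of 14 leukocyte markers, 12 were listed and 2 were tested. Their summed level was 12.4 to 15.3 CPM in KO2, 28.5 to 37.8 in KO1 and 14.9 to 21.8 in Ctrl, nearly all of it Cd68, a lysosomal protein of macrophages that was lower in KO2 (log2 fold change -0.42) and higher in KO1 (0.89). Its call in KO2 was lost without Ctrl replicate 2 or 3 or KO2 replicate 1 or 2, with edgeR adjusted p up to 0.145. The other tested marker, the lysozyme gene Lyz2 of myeloid cells, had 1, 23 and 1 counts in KO2, 11, 11 and 8 in KO1 and 0 in every Ctrl library. It was called higher in KO2 (edgeR adjusted p = 0.0370), a call lost without KO2 replicate 2 (0.0866), without any 1 Ctrl or KO1 replicate and with limma, and it was not called in KO1 (0.0517), where 8 of 16 alternatives called it. Ptprc, the pan-leukocyte marker, stayed below 0.1 CPM in every library, and Cd3e and Adgre1 were at 0 in all 6 knockout libraries. The part of these marker levels in the results on the members was not tested.

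Per length, the members spanned more than 3 orders of magnitude in each group, from H2-T24 to B2m. B2m stood at 708 FPKM in KO2, 711 in KO1 and 599.7 in Ctrl (means of 3), and the chaperone Pdia3 followed at 389 in KO2, 357 in KO1 and 336 in Ctrl. The classical heavy chains H2-K1 and H2-D1 came at 107 and 137 in KO2, 126 and 170.1 in KO1 and 115 and 143 in Ctrl. They stood below Calr and Canx and far above the other heavy chains among the members. Summed FPKM of the 10 listed heavy chains were 348, 351 and 347 in KO2, 427, 413 and 412 in KO1, and 334, 425 and 371 in Ctrl. With the H2 rows of other class I-like genes added (23 rows), they were 909, 926 and 918 in KO2, 900, 916 and 928 in KO1, and 908, 1010 and 891 in Ctrl. More of that FPKM thus lay in H2 rows outside the members than in the members. The heavy chains H2-Q4 and H2-T23 were between 32.8 and 37.6 FPKM in all groups, and H2-Q1, H2-Q2, H2-Q7, H2-T22 and H2-M3 between 5.72 and 13.2. Inducible Psmb9 was at 2.23 FPKM in KO2, 2.28 in KO1 and 2.80 in Ctrl, and constitutive Psmb6, its counterpart, at 77.4 in KO2, 47.6 in KO1 and 72.8 in Ctrl.

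**Figure D1:**
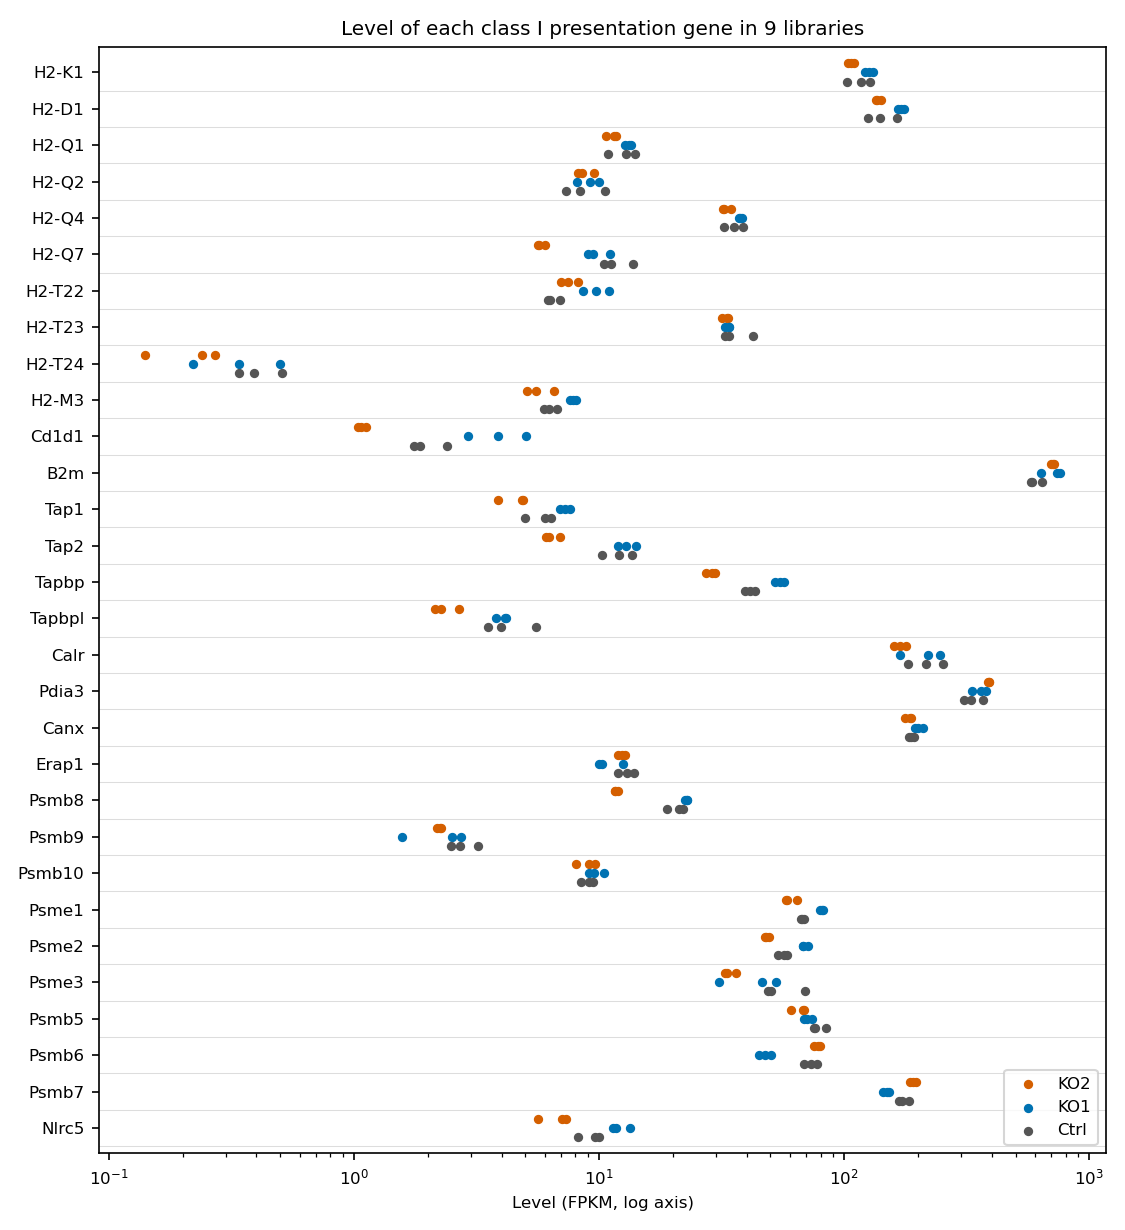
Level of each listed member in FPKM on a log axis, 1 point per library, with KO2 above KO1 above Ctrl in each row. B2m is highest in all groups and H2-T24 lowest, and the KO2 points of Tap2, Tapbp and Psmb8 lie left of all others in their rows.

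In KO2 against Ctrl, the peptide loading genes Tap2, Tapbp and Tapbpl and the inducible proteasome subunit Psmb8 were lower. B2m and Pdia3 were higher, and the classical heavy chains H2-K1 and H2-D1 were not called. edgeR called 12 of the 30 members (adjusted p under 0.05), 4 higher and 8 lower, where it called 54.1% of all 13682 genes tested, 24.6% higher and 29.5% lower. The members' share of 40.0% lies below that background, and the number called is therefore no result about the members. The median log2 fold change was -0.09 over the 30 members and -0.03 over all genes tested. With total count scaling the split was 2 higher and 13 lower, and the share of calls that were higher over all genes was 35.8%, against 45.5% with TMM.

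In KO1 against Ctrl, Cd1d1, H2-T22, Tapbp, Nlrc5 and the proteasome activator genes Psme1 and Psme2 were higher, and the constitutive subunits Psmb6 and Psmb7 lower. edgeR called 8 of the 30 members, 6 higher and 2 lower, against 30.5% of all genes, 15.6% higher and 14.9% lower. The members' share of 26.7% is near the background and again says nothing of them as a set. Their median was 0.06, against -0.002 over all genes. Without Ctrl replicate 3, edgeR called 5 members.

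Between the knockouts, all 4 loading genes, Nlrc5, Psmb8, Psme1, Psme2, Cd1d1, H2-Q7 and H2-M3 were lower in KO2 than in KO1, and Psmb6, Psmb7, Pdia3 and Erap1 were higher. edgeR called 15 of the 30 members, 4 higher and 11 lower, against 55.0% of all genes, so the share, 15 of 30, is close to the background. The direction can be read against 25.5% of all genes higher and 29.5% lower, where 13.3% of the members were higher and 36.7% lower. The median was -0.21 over the members and -0.02 over all genes. Total count scaling moved the median of all genes to -0.13, by more than 0.1, and gave 2 members higher and 14 lower.

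The comparisons of KO2 and of KO1 with Ctrl share their Ctrl libraries, so each member's values are set side by side. H2-T22 was called higher in both, as were 6.31% of all genes tested. Cd1d1, Tapbp and Nlrc5 were called lower in KO2 and higher in KO1, and Psmb7 higher in KO2 and lower in KO1. Such opposite calls were made for 3.97% of all genes tested (lower in KO2, higher in KO1) and 2.08% (the reverse). A further 15 of the 30 members were called in neither comparison, against 35.6% of all genes, and none was called lower in both, against 7.83% of all genes.

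**Figure D2:**
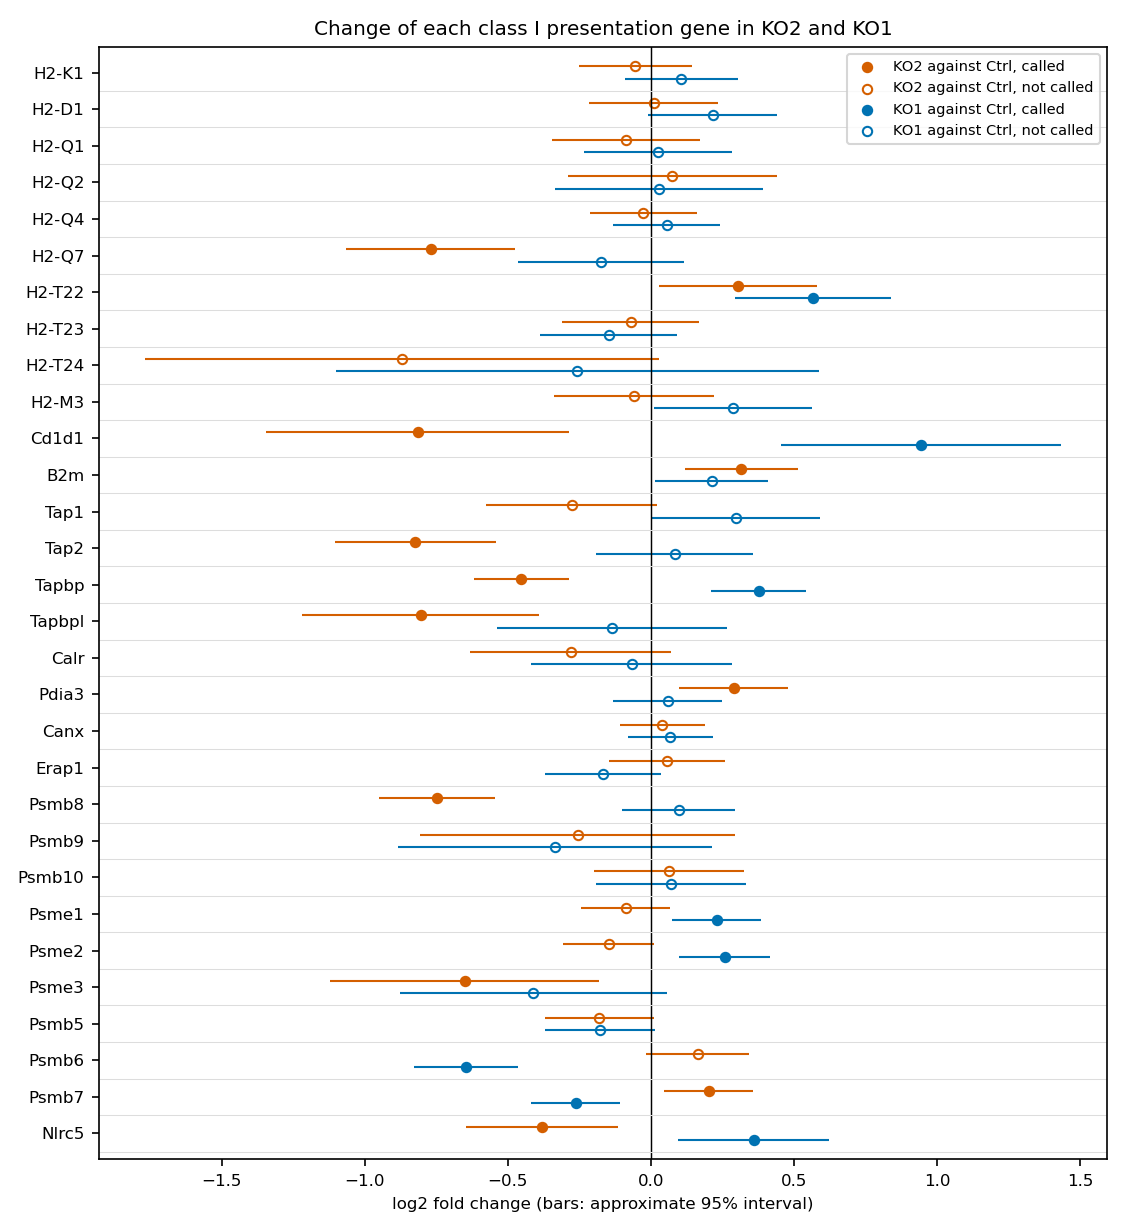
Log2 fold change of each listed member in KO2 against Ctrl (upper point) and KO1 against Ctrl (lower point), with bars for approximate 95% intervals and filled points for genes called at an adjusted p under 0.05. Tapbp, Nlrc5 and Cd1d1 lie left of 0 in KO2 and right of 0 in KO1, while H2-K1 and H2-D1 lie within 0.22 of 0 in both.

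Tapbp encodes tapasin, which bridges TAP and the heavy chain in the loading complex (chr17:33919478-33929290). It was at 80.6, 76.3 and 84.3 CPM in KO2, at 137, 144 and 148 in KO1, and at 105, 116 and 109 in Ctrl. The 3 groups did not overlap, with KO2 lowest and KO1 highest. Its log2 fold change was -0.45 ± 0.07 in KO2 against Ctrl (edgeR adjusted p = 0.000223), 0.38 ± 0.07 in KO1 against Ctrl (adjusted p = 0.00154) and -0.83 ± 0.07 in KO2 against KO1 (adjusted p = 1.87e-06). All 3 calls held in each of 17 alternatives of scaling, filter, tool, block and left-out library. Its promoter, printed above, held 2 CCAAT boxes and no other of the motifs searched.

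Tap2 encodes a subunit of the TAP transporter (chr17:34204479-34216321). Its CPM were 15.8, 15.5 and 17.8 in KO2, 33.4, 28.3 and 30.4 in KO1, and 24.9, 33.1 and 28.8 in Ctrl. Every KO2 library lay below every other library, while KO1 and Ctrl overlapped. On the log2 scale the difference was -0.82 ± 0.11 in KO2 against Ctrl (edgeR adjusted p = 0.000124), -0.91 ± 0.11 against KO1 (adjusted p = 5.65e-05), and 0.08 ± 0.11 in KO1 against Ctrl (adjusted p = 0.608).

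Tap1, the partner of Tap2 in the transporter (chr17:34187556-34197225), had 11.7, 14.8 and 14.8 CPM in KO2, 19.5, 21.6 and 20.4 in KO1, and 14.3, 18.5 and 17.2 in Ctrl. KO1 lay above both other groups, and KO2 overlapped with Ctrl. Against Ctrl, neither KO2 (-0.28 ± 0.12, interval -0.58 to 0.02, edgeR adjusted p = 0.0768) nor KO1 (0.30 ± 0.12, adjusted p = 0.0855) passed the threshold. The KO2 call was made with total count scaling (0.0282), limma (0.0320 and 0.0306), the replicate block (0.0416) and without Ctrl replicate 1 (0.0266), and the block also called KO1 higher (0.0478). Between KO2 and KO1 the difference was -0.57 ± 0.12 (adjusted p = 0.00215).

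Tapbpl, which encodes the tapasin-like peptide editor TAPBPR, was low at 4.49, 5.63 and 4.86 CPM in KO2, 8.18, 7.53 and 8.08 in KO1, and 7.09, 11.1 and 7.90 in Ctrl. KO2 lay below both other groups, which overlapped. edgeR put the log2 fold change at -0.80 ± 0.17 in KO2 against Ctrl (edgeR adjusted p = 0.00207) and -0.14 ± 0.16 in KO1 (adjusted p = 0.568), with -0.67 ± 0.17 in KO2 against KO1 (adjusted p = 0.00629). Its expected counts were not whole numbers in any library.

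Nlrc5, the transactivator of class I genes (chr8:94434335-94527272), had 64.7, 70.3 and 53.5 CPM in KO2, 114, 100.1 and 101 in KO1, and 72.9, 88.6 and 84.1 in Ctrl. The groups did not overlap, in the same order as for Tapbp. This gave a log2 fold change of -0.38 ± 0.11 in KO2 against Ctrl (edgeR adjusted p = 0.0118), 0.36 ± 0.11 in KO1 (adjusted p = 0.0264) and -0.74 ± 0.11 in KO2 against KO1 (adjusted p = 0.000171). The call in KO1 was lost without Ctrl replicate 1 (adjusted p = 0.1004), Ctrl replicate 3 (0.0599), KO1 replicate 1 (0.0715) or KO1 replicate 3 (0.0516).

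**Figure D3:**
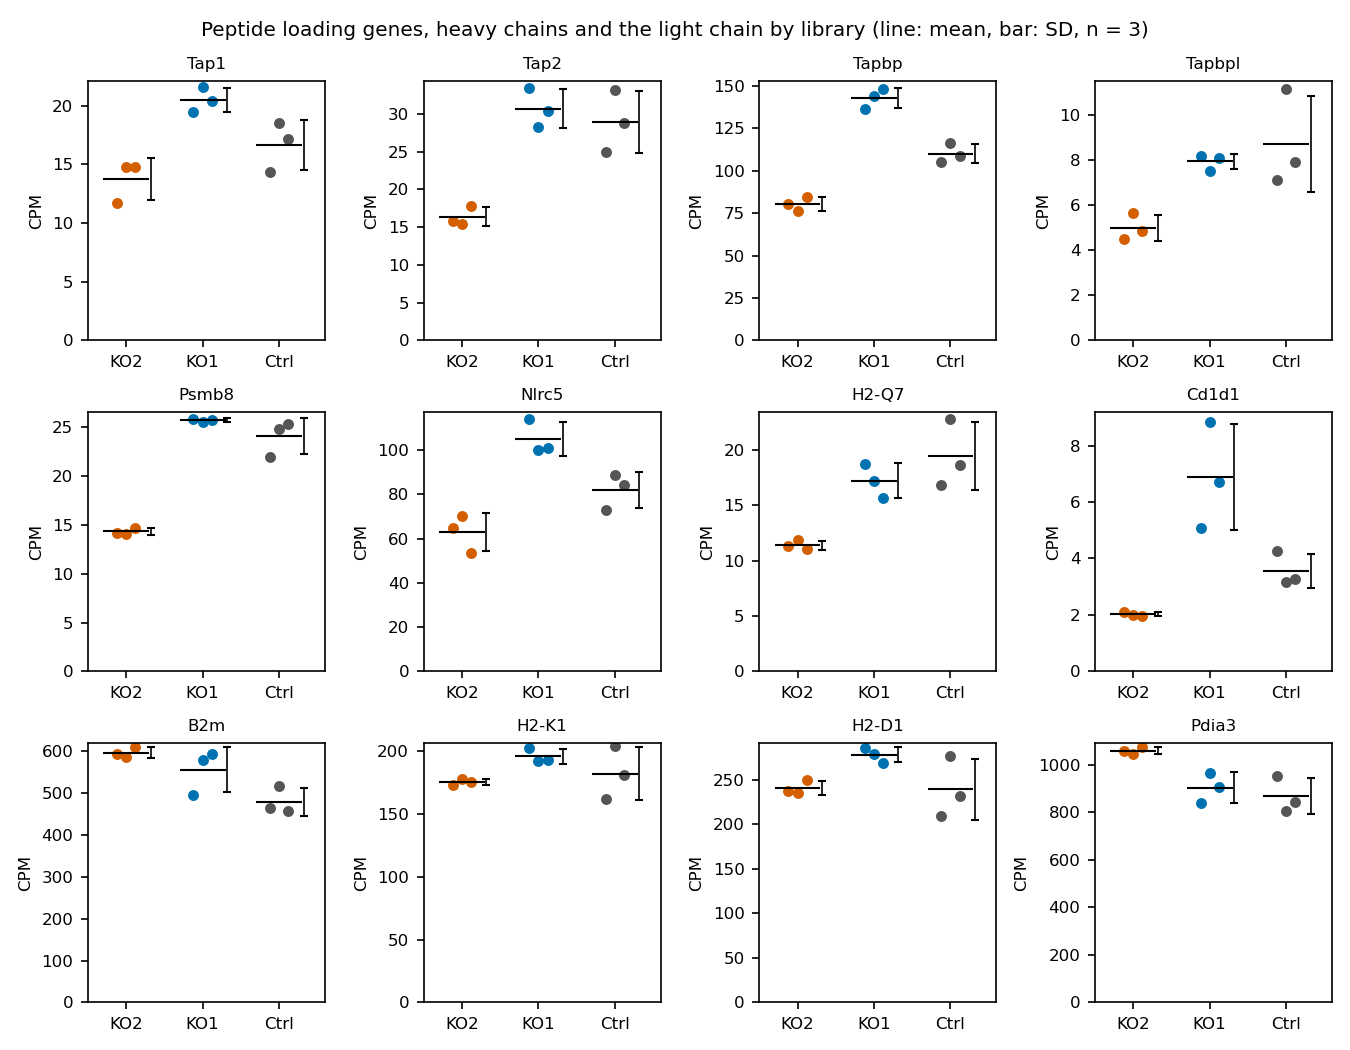
CPM of 12 members in each library, with the mean (line) and SD (bar) of 3 libraries per group, on axes from 0. For Tap2, Tapbp, Tapbpl and Psmb8 the KO2 libraries lie below all KO1 and Ctrl libraries, whereas for B2m and Pdia3 they lie above all Ctrl libraries.

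H2-K1 and H2-D1 are classical heavy chains, which present peptides to CD8 T cells, and neither was called by edgeR with TMM in any comparison. H2-K1 (chr17:33996012-34000619) had 173, 178 and 176 CPM in KO2, 203, 192 and 193 in KO1, and 162, 204 and 181 in Ctrl. H2-D1 (chr17:35263094-35267497) had 238, 235 and 250.1 CPM in KO2, 286, 279 and 269 in KO1, and 209, 277 and 231 in Ctrl. For both genes the Ctrl libraries overlapped with each knockout, and every KO2 library lay below every KO1 library. The log2 fold change of H2-K1 was -0.05 in KO2 (interval -0.25 to 0.14) and 0.11 in KO1 (-0.09 to 0.30), and that of H2-D1 0.01 (-0.21 to 0.24) and 0.22 (-0.01 to 0.44). Between KO2 and KO1, total count scaling called both lower in KO2, H2-K1 at -0.27 (adjusted p = 0.0153) and H2-D1 at -0.31 (0.0121), and so did limma, where TMM gave -0.16 and -0.21. H2-D1 was also called lower there in a fit of the 2 knockouts only (0.0224) and without Ctrl replicate 1 (0.0454) or 2 (0.0201), and higher in KO1 than in Ctrl without Ctrl replicate 2 (0.33, adjusted p = 0.00680). Summed over the 10 listed heavy chains among the members, the level was 579 ± 5.49 CPM in KO2, 650 ± 14.3 in KO1 and 594 ± 75.6 in Ctrl (SD, n = 3 each). Over the 23 H2 class I rows it was 883 ± 7.03 in KO2, 949 ± 11.6 in KO1 and 901 ± 95.1 in Ctrl.

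Ctrl replicate 2 held the highest value within Ctrl for 9 of the 10 heavy chains and 22 of the 30 members, and Ctrl replicate 1 the lowest for 20. The median coefficient of variation of the members was 4.38% in KO2, 5.65% in KO1 and 9.64% in Ctrl. The part of this spread in the results was not tested other than by leaving out each library in turn.

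Among the nonclassical heavy chains, H2-Q7 (a Qa-2 antigen) was lower in KO2 and H2-T22 (a ligand of some gamma delta T cells) higher in both knockouts, and the other 6 were not called against Ctrl. H2-Q7 had 11.3, 11.8 and 11.1 CPM in KO2, 18.7, 17.2 and 15.6 in KO1, and 16.8, 22.8 and 18.7 in Ctrl. KO2 lay below both other groups, and KO1 and Ctrl overlapped. The log2 fold change was -0.77 ± 0.12 in KO2 (edgeR adjusted p = 0.000299), -0.18 ± 0.12 in KO1 (adjusted p = 0.294) and -0.59 ± 0.12 in KO2 against KO1 (adjusted p = 0.00163).

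H2-T22 had 13.3, 14.6 and 12.5 CPM in KO2, 14.2, 18.3 and 16.0 in KO1, and 10.7, 10.5 and 11.6 in Ctrl. All 6 knockout libraries lay above all Ctrl libraries. Its log2 fold change was 0.57 ± 0.11 in KO1 against Ctrl (edgeR adjusted p = 0.00276), a call that held in all 17 alternatives. In KO2 it was 0.30 ± 0.11 (adjusted p = 0.0394), and that call was made in only 7 of the 17. It was lost with total count scaling (adjusted p = 0.112), with limma on FPKM, with a replicate block (0.0588), and without any 1 of Ctrl replicate 1, 2 or 3, KO1 replicate 3, or KO2 replicate 1 or 2, where the adjusted p reached 0.135. KO2 and KO1 overlapped and differed by -0.26 ± 0.11, not called (edgeR adjusted p = 0.0656). Total count scaling (0.0166), limma (0.0138 and 0.0135) and leaving out KO1 replicate 1 (0.0228) called KO2 lower than KO1.

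H2-M3, which presents formylated peptides, had 9.30, 7.29 and 8.02 CPM in KO2, 10.4, 10.2 and 10.7 in KO1, and 8.08, 9.20 and 8.39 in Ctrl. KO1 lay above both other groups. With limma KO1 was also called higher than Ctrl (adjusted p = 0.0304 and 0.0331). With edgeR the only call was KO2 against KO1, at -0.35 ± 0.11 (edgeR adjusted p = 0.0226), and it was lost without KO1 replicate 3 (0.0718), KO2 replicate 2 (0.0906) or KO2 replicate 3 (0.0699). H2-T23, whose product Qa-1 presents leader peptides to NK cell receptors, averaged 43.1 ± 0.87 CPM in KO2, 40.9 ± 0.74 in KO1 and 45.3 ± 7.04 in Ctrl. H2-Q1, H2-Q2 and H2-Q4 differed from Ctrl by less than 0.1 on the log2 scale in both knockouts, with approximate 95% intervals from -0.35 to 0.44. H2-T24 was near the floor at 0.31 to 1.10 CPM and was not called, with a log2 fold change of -0.87 in KO2 (interval -1.77 to 0.03), though total count scaling, limma and a fit of KO2 and Ctrl only called it lower (adjusted p between 0.0390 and 0.0489).

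Heavy chain values carry a counting limit. The cells are BALB/c, which carries other class I alleles than the C57BL/6 reference, and in all 9 libraries the counts of H2-K1, H2-D1, H2-Q1, H2-Q2, H2-Q4, H2-Q7, H2-T22 and H2-T23 were not whole numbers. Among the reference transcripts, 16.4% of the 100-base windows of H2-Q7 occur in other genes, chiefly H2-Q6, and 14.2% of those of H2-T22, chiefly H2-T10. The share was 13.1% for H2-Q1, 7.28% for H2-T23, 4.64% for H2-D1 and 0 for H2-K1. A change in how reads were divided among these genes and a change in their RNA cannot be told apart here.

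Cd1d1 encodes CD1d, a class I-like molecule that pairs with beta-2 microglobulin and presents lipids to NKT cells (chr3:86995834-87012358). It had 2.10, 2.00 and 1.97 CPM in KO2, 5.08, 8.83 and 6.71 in KO1, and 4.27, 3.15 and 3.28 in Ctrl. The 3 groups did not overlap, with KO2 lowest and KO1 highest, and of all members this had the widest difference between KO2 and KO1, at -1.76 ± 0.21 (edgeR adjusted p = 3.85e-05). On the log2 scale the difference was -0.82 ± 0.22 in KO2 against Ctrl (adjusted p = 0.00807) and 0.94 ± 0.20 in KO1 (adjusted p = 0.00422), and all these calls held in all 17 alternatives. Of its 100-base windows, 14.6% occur also in its near copy Cd1d2.

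B2m, the light chain shared by all class I molecules (chr2:122147687-122153082), had 594, 585 and 609.5 CPM in KO2, 494, 579 and 592 in KO1, and 464, 517 and 455 in Ctrl. Every KO2 library lay above every Ctrl library, while KO1 overlapped with both. edgeR put the log2 fold change at 0.32 ± 0.08 in KO2 (edgeR adjusted p = 0.0066), and this call held in all 17 alternatives. In KO1 it was 0.21 ± 0.08 and not called (adjusted p = 0.0675), but it passed with total count scaling (0.0375), with DESeq2 (0.0482), without Ctrl replicate 2 (0.0371) and without KO1 replicate 1 (0.00999). KO2 and KO1 differed by 0.10 ± 0.08 (adjusted p = 0.302, interval -0.09 to 0.30).

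Of the 3 chaperones and Erap1, edgeR with all libraries called only Pdia3 against Ctrl. Pdia3, the oxidoreductase ERp57 of the loading complex, had 1058, 1047 and 1076 CPM in KO2, 838, 966 and 907 in KO1, and 952, 805 and 845 in Ctrl. KO2 lay above both other groups. It was higher in KO2 than in Ctrl by 0.29 ± 0.08 (edgeR adjusted p = 0.00884) and than in KO1 by 0.23 ± 0.08 (adjusted p = 0.0269), and the second call was kept in only 8 of 17 alternatives. Those without KO1 replicate 1 or 3 or any KO2 replicate lost it, with adjusted p up to 0.0805 in these, and total count scaling gave 0.195.

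Calreticulin (Calr) and calnexin (Canx), the lectin chaperones of new heavy chains, were not called by edgeR with all libraries, and Calr was called lower in KO2 than in Ctrl without Ctrl replicate 2 (adjusted p = 0.0495) and than in KO1 without KO1 replicate 1 (0.0339). Calr averaged 334 ± 21.8 CPM in KO2, 388 ± 73.6 in KO1 and 406 ± 65.3 in Ctrl, and Canx 812 ± 28.3 in KO2, 829 ± 32.5 in KO1 and 790.4 ± 18.7 in Ctrl. Erap1, which trims peptides in the endoplasmic reticulum, averaged 66.1 ± 0.65 CPM in KO2, 56.6 ± 5.44 in KO1 and 63.6 ± 4.68 in Ctrl. Without KO1 replicate 1 it was called lower in KO1 than in Ctrl (-0.25, edgeR adjusted p = 0.0271). With all libraries it was called only between KO2 and KO1, at 0.22 ± 0.08 (edgeR adjusted p = 0.0398). That call was lost in 9 of 17 alternatives, including total count scaling (0.244), leaving out KO1 replicate 2 (0.0599) or 3 (0.144), and leaving out KO2 replicate 1 (0.0886), 2 (0.0760) or 3 (0.0967).

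Of the 3 inducible catalytic subunits of the immunoproteasome, Psmb8 was lower in KO2 and neither Psmb9 nor Psmb10 was called. Psmb8 (LMP7, chr17:34198195-34201454) had 14.2, 14.1 and 14.7 CPM in KO2, 25.9, 25.5 and 25.8 in KO1, and 21.9, 24.8 and 25.3 in Ctrl. The KO2 libraries lay far below all others. This gave a log2 fold change of -0.75 ± 0.08 in KO2 against Ctrl (edgeR adjusted p = 2.04e-05), -0.84 ± 0.08 against KO1 (adjusted p = 7.33e-06) and 0.10 ± 0.08 in KO1 against Ctrl (adjusted p = 0.396), and the calls held in all 17 alternatives.

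Psmb9 (LMP2), whose start faces that of Tap1, was at 1.76 ± 0.05 CPM in KO2, 1.67 ± 0.46 in KO1 and 2.10 ± 0.29 in Ctrl, with wide intervals on its log2 fold change (-0.81 to 0.30 in KO2 and -0.88 to 0.21 in KO1). Psmb10 (MECL-1) averaged 11.4 ± 1.07, 11.4 ± 0.85 and 10.9 ± 0.66 CPM in KO2, KO1 and Ctrl. Its change lay within -0.20 to 0.33 in KO2 and -0.19 to 0.33 in KO1.

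Of the constitutive subunits, Psmb6 and Psmb7 were lower in KO1, and Psmb7 was higher in KO2. Psmb6, replaced by Psmb9 in the immunoproteasome, had 81.1, 76.9 and 80.8 CPM in KO2, 42.7, 48.3 and 45.2 in KO1, and 66.6, 75.9 and 70.6 in Ctrl. KO1 lay well below both other groups. The log2 fold change was -0.65 ± 0.07 in KO1 (edgeR adjusted p = 7.73e-05), 0.16 ± 0.07 in KO2 (adjusted p = 0.0803) and 0.81 ± 0.07 in KO2 against KO1 (adjusted p = 4.61e-06).

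Psmb7, replaced by Psmb10, had 187, 176 and 184 CPM in KO2, 136, 133 and 128 in KO1, and 168, 158 and 150.4 in Ctrl. The groups did not overlap, with KO2 highest and KO1 lowest. On the log2 scale, KO1 differed from Ctrl by -0.26 ± 0.06 (edgeR adjusted p = 0.00904) and KO2 by 0.20 ± 0.06 (adjusted p = 0.0198). The call in KO2 was lost with total count scaling (0.111), with limma on FPKM, and without Ctrl replicate 3 (0.0942), KO2 replicate 1 (0.0728) or KO2 replicate 3 (0.0583). Psmb5, replaced by Psmb8, averaged 56.2 ± 3.91 CPM in KO2, 56.3 ± 2.31 in KO1 and 63.6 ± 4.37 in Ctrl and was not called, although total count scaling (adjusted p = 0.0137) and limma (0.0126 and 0.0122) called it lower in KO2, and 23.6% of its 100-base windows occur also in the copy Gm3375.

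As a measure per length, the FPKM of each inducible subunit was divided by that of its constitutive counterpart. Psmb8 over Psmb5 was 0.172, 0.191 and 0.173 in KO2, 0.333, 0.303 and 0.323 in KO1, and 0.251, 0.253 and 0.289 in Ctrl. The groups did not overlap. The mean log2 ratio differed by -0.56 in KO2 and 0.28 in KO1 against Ctrl and by -0.84 between KO2 and KO1, each at an exact two-sided permutation p of 0.1, the smallest that 3 against 3 libraries allow, and 0.129 adjusted over the 9 ratio tests.

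Psmb9 over Psmb6 averaged 0.0289 ± 0.0013 in KO2, 0.0475 ± 0.0108 in KO1 and 0.0384 ± 0.0028 in Ctrl. KO2 lay below both other groups (log2 differences of -0.41 against Ctrl and -0.69 against KO1, exact permutation p = 0.1 each), and KO1 overlapped with Ctrl (0.28, exact permutation p = 0.4). Psmb10 over Psmb7 averaged 0.0469 ± 0.0031 in KO2, 0.0652 ± 0.0053 in KO1 and 0.0518 ± 0.0051 in Ctrl, with KO1 above both other groups (0.33 against Ctrl, exact permutation p = 0.1) and KO2 overlapping with Ctrl (-0.14, exact permutation p = 0.3). None of the 9 tests could pass 0.05. In each of these ratios and in Psmb8 over Psmb5, the higher KO1 mean stood beside a lower KO1 mean of the constitutive subunit in the denominator. The log2 fold changes in KO1 against Ctrl were -0.18 for Psmb5 (not called), -0.65 for Psmb6 and -0.26 for Psmb7. Those of the inducible subunits were 0.10 for Psmb8, -0.33 for Psmb9 and 0.07 for Psmb10, none called. For the lower Psmb9 over Psmb6 in KO2, the log2 fold changes against KO1 were 0.08 for Psmb9 (not called) and 0.81 for Psmb6. Against Ctrl they were -0.26 for Psmb9 and 0.16 for Psmb6, neither called.

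**Figure D4:**
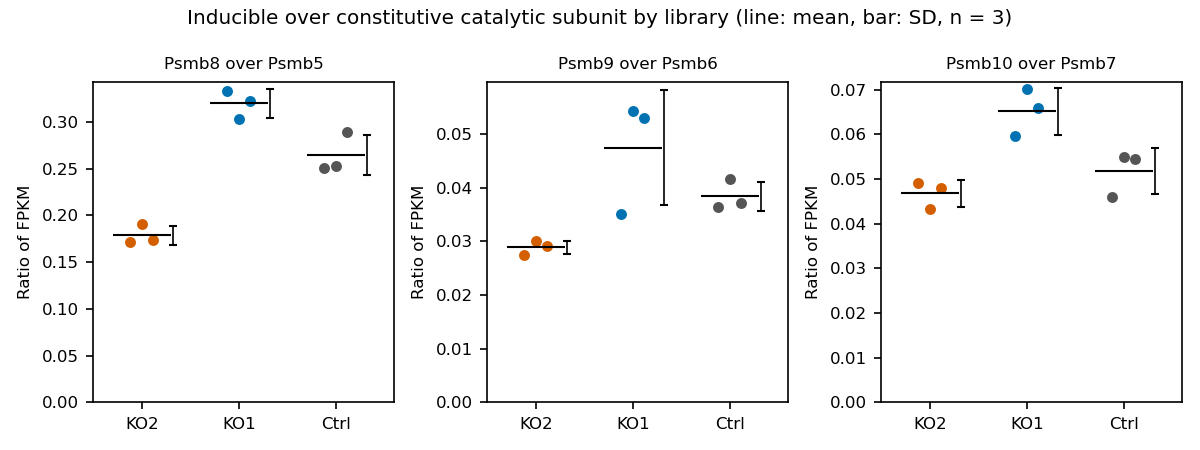
Ratio of the FPKM of each inducible proteasome subunit to that of the constitutive subunit it replaces, 1 point per library, with the mean (line) and SD (bar) of 3 libraries per group. KO2 is lowest and KO1 highest on average in all 3 panels, without overlap for Psmb8 over Psmb5.

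Psme1 and Psme2 encode the PA28 alpha and beta caps that open the proteasome, and Psme3 the nuclear PA28 gamma. Psme1 had 56.3, 61.7 and 56.5 CPM in KO2, 71.1, 73.2 and 73.3 in KO1, and 61.3, 63.4 and 60.8 in Ctrl, while Psme2 had 43.9, 42.3 and 42.7 CPM in KO2, 58.3, 56.7 and 55.8 in KO1, and 49.4, 48.2 and 45.2 in Ctrl. In both, KO1 lay above all other libraries. The log2 fold changes in KO1 against Ctrl were 0.23 ± 0.06 (edgeR adjusted p = 0.0184) and 0.26 ± 0.06 (adjusted p = 0.0108), and in KO2 against KO1 -0.32 ± 0.06 and -0.41 ± 0.06 (adjusted p = 0.00151 and 0.000325).

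In KO2 against Ctrl neither was called (-0.09 and -0.15), but with total count scaling both passed as lower (adjusted p = 0.0482 for Psme1 and 0.0118 for Psme2). With limma both passed as lower too (adjusted p = 0.0356 and 0.0372 for Psme1, 0.0078 and 0.00809 for Psme2). Psme1 was no longer called in KO1 without Ctrl replicate 1 (adjusted p = 0.0563), Ctrl replicate 3 (0.0738) or KO1 replicate 3 (0.0649), and Psme2 without Ctrl replicate 3 (0.0592). Of the 100-base windows of Psme2, 44.5% occur also in the copy Psme2b, and its counts were not whole in 6 libraries.

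Psme3 had 97.0, 86.9 and 90.0 CPM in KO2, 132, 77.2 and 115 in KO1, and 125, 178 and 127 in Ctrl. KO2 lay below Ctrl, and the KO1 libraries were spread over both. Its log2 fold change was -0.65 ± 0.19 in KO2 (edgeR adjusted p = 0.0167), a call lost without Ctrl replicate 2 (-0.47, adjusted p = 0.0587), KO2 replicate 2 (0.0563) or KO2 replicate 3 (0.0526), and -0.41 ± 0.19 in KO1 (adjusted p = 0.137).

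Beside the members, 19 regulators of class I transcription were all tested. In KO2 against Ctrl, 9 were lower and 2 higher, in KO1 3 were higher and 2 lower, and in KO2 against KO1 11 were lower and 3 higher. The list's called shares of 57.9%, 26.3% and 73.7% stand beside 54.1%, 30.5% and 55.0% of all genes, and its shares called lower, 47.4%, 10.5% and 57.9%, beside 29.5%, 14.9% and 29.5%. The medians were -0.20, 0.04 and -0.22, against -0.03, -0.002 and -0.02 over all genes. The 2 chains of the interferon gamma receptor were both lower in KO2. Ifngr1 had 17.5, 15.1 and 17.8 CPM in KO2, 46.0, 44.4 and 45.2 in KO1, and 44.3, 40.6 and 47.1 in Ctrl, a log2 fold change of -1.39 in KO2 (edgeR adjusted p = 2.26e-07) and 0.04 in KO1 (adjusted p = 0.766). Ifngr2 averaged 25.2 ± 0.80 CPM in KO2, 60.1 ± 2.65 in KO1 and 61.9 ± 4.74 in Ctrl, -1.30 in KO2 (adjusted p = 1.42e-07).

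Downstream of the receptor, the kinase Jak1 was lower in KO2 (-0.87, edgeR adjusted p = 4.13e-07), as was Irf9, a transcription factor of the interferon response (-1.07, adjusted p = 0.00028). Jak2 was called lower in KO1 (-0.27, adjusted p = 0.0236), a call lost with limma, in a fit of KO1 and Ctrl only, with the replicate block and without Ctrl replicate 1 or 3 or KO1 replicate 1 or 3 (adjusted p up to 0.0915), and Socs1, which restrains Jak kinases, was higher in both (0.53 in KO2 and 0.51 in KO1).

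Irf1, an interferon-induced activator of class I genes, followed the order of Tapbp and Nlrc5. It had 63.2, 66.7 and 65.5 CPM in KO2, 121, 135 and 131 in KO1, and 92.0, 89.1 and 86.2 in Ctrl. The 3 groups did not overlap. On the log2 scale the difference was -0.45 in KO2 (edgeR adjusted p = 0.00016), 0.53 in KO1 (adjusted p = 0.000113) and -0.98 in KO2 against KO1 (adjusted p = 3.23e-07). The NF-kappaB gene Nfkb1 gave calls in the same directions, at -0.54 in KO2 and 0.22 in KO1 (adjusted p = 3.28e-05 and 0.0191), and its KO1 call was lost without Ctrl replicate 1 or 3 or KO1 replicate 3, with adjusted p up to 0.0834, and in a fit of KO1 and Ctrl only (0.0562). The NF-Y subunit Nfya was higher in KO2 (0.66, adjusted p = 0.000114). No link between these levels and those of the members was tested.

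**Figure D5:**
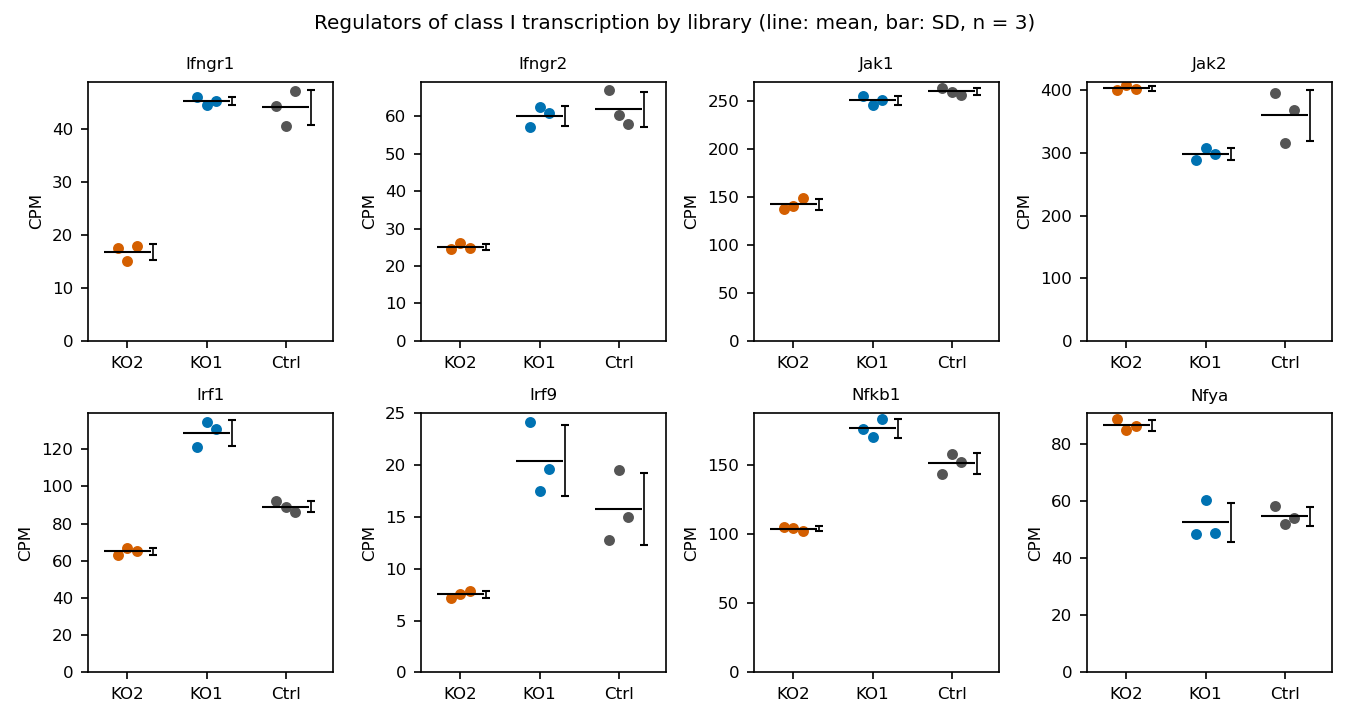
CPM of 8 regulators of class I transcription in each library, with the mean (line) and SD (bar) of 3 libraries per group, on axes from 0. Ifngr1, Ifngr2 and Jak1 are low in the KO2 libraries alone, and Irf1 is lowest in KO2 and highest in KO1.

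Of 11 tested genes of class I turnover and quality control, 3 were higher and 4 lower in KO2, and 2 higher and 3 lower in KO1, where 54.1% and 30.5% of all genes were called. Susd6 and Tmem127, which together recruit a ubiquitin ligase to class I molecules, gave different calls. Susd6 averaged 72.7 ± 1.23 CPM in KO2, 163 ± 13.1 in KO1 and 254 ± 16.8 in Ctrl, lower in both (-1.81 and -0.64, edgeR adjusted p = 1.12e-08 and 9.27e-05), while Tmem127 averaged 146 ± 3.44 in KO2, 95.4 ± 8.48 in KO1 and 85.3 ± 4.22 in Ctrl and was higher in KO2 (0.78, adjusted p = 8.12e-06). Of 8 cytosolic peptidases, 2 were lower in KO2 and 1 in KO1, a smaller share than over all genes. Of 4 genes of the Polycomb complex PRC2, which can silence class I genes, Eed was lower in KO2 (-0.57) and Suz12 higher in KO2 (0.23, a call lost with total count scaling at an adjusted p of 0.0798 with limma at 0.0775 and 0.0783 and without Ctrl replicate 2 at 0.0515), while Ezh1 was higher in both (0.31 and 0.55) and Ezh2 was not called against Ctrl (0.09 and -0.13).

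Of 13 other tested class I-like and neighbouring H2 genes, 2 were higher and 5 lower in KO2, and 2 higher and 2 lower in KO1. These called shares, 53.8% and 30.8%, are close to those of all genes, 54.1% and 30.5%, and say nothing of the list as a set. Fcgrt, which encodes the neonatal Fc receptor and pairs with beta-2 microglobulin, was lower in KO2 and higher in KO1 (-0.39 and 0.37, edgeR adjusted p = 0.00736 and 0.0161), and its KO1 call was lost without Ctrl replicate 1 (0.0564) or KO1 replicate 2 (0.0530). Hfe, the iron regulator that also pairs with it, showed the reverse (0.50 and -0.53, adjusted p = 0.00268 and 0.00443). Of the H2 genes in this list, H2-K2 (-0.43), H2-Q5 (-0.40) and H2-Q8 (-0.28) were called lower in KO2. The H2-K2 call was lost without Ctrl replicate 2 or KO2 replicate 2 or 3. H2-T9 was called higher in KO2, a call kept in 7 of 17 alternatives, and lower in KO1 (-0.32), a call lost without Ctrl replicate 1. Of 12 class II presentation genes 6 were tested, and 2 were higher and 3 lower in each knockout against Ctrl. This share, 83.3%, stands beside 54.1% and 30.5% of all genes. Ifi30 was called higher in both (0.66 and 0.70). H2-DMa was called higher in KO2 (0.53), a call lost without Ctrl replicate 2 or KO2 replicate 1. Summed over the 10 listed class II genes, the level was 55.5 ± 3.59 CPM in KO2, 59.3 ± 3.22 in KO1 and 51.8 ± 4.55 in Ctrl (SD). The invariant chain gene Cd74 had 0.131, 0.373 and 0 CPM in KO2, 1.29, 0.681 and 1.19 in KO1, and 12.4, 17.5 and 13.6 in Ctrl, and was called lower in both knockouts (edgeR adjusted p = 1.47e-06 in KO2 and 2.82e-05 in KO1).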

How the data were processed

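RNA-seq of 9 libraries (paired-end, total RNA, 100-base reads, per the labels) gave 1 gene table per library. Per the submitters' processing notes, the authors used HISAT and RSEM with mm10 and GRCm38; versions are not given in the sources used here. Per the file headers, the deposited tables hold an expected count per gene, which the authors did not normalise, and FPKM, which the authors scaled by length and library size. The lowest FPKM in every table is 0.01, and a gene absent from a table entered as 0. Between 74.7% and 75.8% of the counts in a library were exactly whole as deposited, and all were rounded for the tests.

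The main test was edgeR's robust quasi-likelihood F test (version 4.0.16, R 4.3.3) after filterByExpr and TMM, fitted to all 9 libraries together with 6 residual degrees of freedom. It covered 13682 genes, with Benjamini-Hochberg adjustment across that whole table, and calls required an adjusted p under 0.05. The common biological coefficient of variation was 11.1%. CPM are after TMM scaling. Each SE is approximate, the size of the log2 fold change divided by the root of its F statistic, and intervals are approximate 95% intervals on 6 degrees of freedom. Ratios of FPKM were tested with exact two-sided permutation tests of log2 ratios. Levels between genes are compared in FPKM.

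Members, lists, tests and alternatives were chosen with earlier results of these data known. The text names all 31 members and Malat1, and from each other list up to 5 called genes per comparison with the largest change at 1 CPM or more on average, of which those bearing on the members are printed. A regulator is not reported here and was taken out of its list. The lists cover class I regulators, PRC2, other class I-like genes, class I turnover, cytosolic peptidases, class II, and epithelial and leukocyte markers. H2-T23 and other members not called, Ezh2, Epcam, Cdh1, Ptprc, Lyz2, Cd3e and Adgre1 are given to complete a group.

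The alternatives were DESeq2 size factors, total count scaling, no filter, DESeq2 1.42.0, limma 3.58.1 on log2(FPKM + 1) and log2(FPKM + 0.1), a replicate block, a fit of just the 2 groups in question, an adjusted p under 0.01 and each library left out. Within a group, pairs of libraries differed by a chi-square of 8.27 to 60.7 per gene, so none was a duplicate. Libraries with the same replicate number had deviations correlated at -0.34 to 0.05, so they were treated as unpaired. The number of 100-base transcript windows shared with other genes was counted on the reference transcripts. The steps were tested on simulated data. For the edgeR fit, far fewer genes were changed there than were called here, and as many were raised as lowered. That simulation therefore cannot check the choice of scaling. Counting error is covered by the model, and fewer cells of a type and less RNA per cell cannot be told apart in bulk RNA.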

Additional observations from a re-analysis of the deposited data

Results flagged for a closer look

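For 15 members the levels in KO2 and KO1 differed in the edgeR contrast of KO2 against KO1. That contrast, from the same fit, called 55.0% of all genes tested. As log2 fold changes of KO2 against KO1, the loading genes differed by -0.57 (Tap1), -0.91 (Tap2), -0.83 (Tapbp) and -0.67 (Tapbpl). The presenting molecules differed by -1.76 (Cd1d1), -0.59 (H2-Q7) and -0.35 (H2-M3). Among proteasome genes, the difference was -0.84 for Psmb8, -0.32 for Psme1, -0.41 for Psme2, 0.81 for Psmb6 and 0.47 for Psmb7. It was -0.74 for Nlrc5, 0.23 for Pdia3 and 0.22 for Erap1. Of these, Cd1d1, Tapbp, Nlrc5 and Psmb7 were called against Ctrl in opposite directions in KO2 and KO1. The knockouts also differ in Malat1 itself, at 126 ± 31.5 CPM in KO2 and 3.40 ± 0.67 in KO1 (SD, n = 3 each), and the part of this in these differences was not tested. The Malat1 level and any other difference between the KO2 and KO1 cells cannot be told apart here. Groups of 3 libraries are too small to test single libraries as outliers.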

How the results depend on the processing

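No member or named gene reversed its direction past the threshold under any alternative. Over 1530 results of single members under the alternatives, 1433 kept their side of the threshold, 49 passed newly and 48 were lost. At an adjusted p under 0.01, 2620 genes and 5 members were called in KO1 against Ctrl, in place of 4177 and 8. Leaving out each library in turn gave 5 to 10 members in KO1 (the 5 without Ctrl replicate 3, the 10 without Ctrl replicate 2), 10 to 13 in KO2 and 12 to 16 in KO2 against KO1, with 3215 to 4503, 6412 to 7985 and 6451 to 7964 genes called. A group left with 2 libraries was fitted with the spread shared over all groups.

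With limma on log2(FPKM + 1), members split 2 higher and 13 lower in KO2, 8 and 2 in KO1, and 2 and 15 in KO2 against KO1, where all genes split 2616 and 4712, 2442 and 1914, and 2524 and 4969. DESeq2 kept 12 members in KO2 and 15 in KO2 against KO1 and called 9 in KO1. The replicate block gave 6726, 3365 and 6829 genes and 12, 9 and 13 members in KO2 against Ctrl, KO1 against Ctrl and KO2 against KO1. The numbers do not pair the libraries (deviations correlated at -0.34 to 0.05). For the proteasome ratios, exact permutation within pairs of the block can reach no p below 0.25. Leaving out libraries moved Psmb9 over Psmb6 in KO1 between 0.17 and 0.49 (log2) with exact permutation p of 0.1 to 0.7, and no ratio changed sign. The cause of the calls lost under total count scaling was not tested. H2-T24, Psmb9 and Cd1d1 had the lowest counts among the members, and the part of depth in their calls was not tested.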
